A study of Mus musculus with 8 samples.

Results

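Motile cilia and axoneme genes were followed in bulk RNA-seq counts from brain tumors and naive brain of mice with a ZFTA-RELA fusion, a model of supratentorial ependymoma. The gene set was defined by symbol and not by any measured value, but it was chosen with earlier results of these data known. It takes the axonemal dynein genes (Dnah and Dnai), the cilia and flagella associated genes (Cfap), the radial spoke genes (Rsph), the tektins (Tekt), the intraflagellar transport genes (Ift), and Foxj1, Spag6l, Spag16, Spag17, Hydin and Ccdc153. The rule found 84 genes of 55414 in the table. Of these, 83 had enough counts to be tested and 68 had at least 1 count in every library, and Rsph6a was the gene left untested.

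The 8 libraries form 4 groups of 2. MRX-2843 tumor is brain tumor from mice given the oral drug MRX-2843, which blocks the kinases MERTK and FLT3. They were dosed at 50 mg/kg a day over 5 days and killed 1 hour after the last dose. Vehicle tumor is brain tumor from mice given vehicle, and MRX-2843 naive brain and vehicle naive brain are tissue labelled naive brain after each treatment. All 8 libraries carry the genotype label ZFTA-RELAfusion, vehicle and naive brain included, and all 8 give the drug name as cell line. The labels state neither how the fusion was introduced, nor the age or sex of the mice, nor whether naive brain came from tumor-bearing animals. They do not say whether the 2 libraries of a group came from separate animals, and the column names call them duplicates. Those names carry the number 909 for all MRX-2843 libraries, tumor and naive. Both vehicle tumor libraries and vehicle naive brain library 1 carry 914, and vehicle naive brain library 2 carries 915. What the numbers stand for is not stated. P-values therefore measure only the spread between these libraries, which may be technical.

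A motile cilium is built on an axoneme, in which a ring of doublet microtubules surrounds a central pair. Outer and inner dynein arms on the doublets make the cilium beat, radial spokes and the central apparatus regulate that beat, tektins and other inner proteins stiffen the doublets, and intraflagellar transport carries parts to the tip. In the brain, ependymal cells lining the ventricles carry tufts of such cilia, while neurons and astrocytes mostly carry a single primary cilium, which also needs intraflagellar transport but lacks the beating machinery. Foxj1 and the RFX factors are transcription factors known to switch on motile cilia genes, and RFX factors bind a motif called the X-box.

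Promoter sequences of the genes were read first, since RFX factors act there. RefSeq windows on GRCm38.p6, from 250 bases before to 50 after the start, were matched for 68 of the 84 genes, in 75 windows. One arm of the X-box, GTTGCC or its reverse complement GGCAAC, stood in 30 of the 75 windows, beside 12.5% of all 32851 RefSeq windows. The share was 45.5% of 11 windows for Ift genes and 39.1% of 64 for the others. The whole X-box, GTTNCC and GGNAAC with NN between them, which can contain an arm, stood in 1.33% of the windows and 0.451% of all windows, and a forkhead motif, TGTTTAC or GTAAACA, in 5.33% and 3.65%. Both strands were searched in each case. A match is a description of the letters and not a binding site. The stretches below, with the arms in capitals, show 7 genes with an arm before the start: a tektin, central apparatus genes, a tether gene, an ependymal marker and a transport gene. They lie at chr11:72361883-72361942 (minus strand) for Tekt1, chr1:69826840-69826899 (plus) for Spag16, chr16:44394739-44394798 (plus) for Cfap44, chr4:155409047-155409106 (plus) for Cfap74, chr8:110266917-110266976 (plus) for Hydin, chr9:44240498-44240557 (plus) for Ccdc153 and chr16:49699207-49699266 (plus) for Ift57.
Tekt1: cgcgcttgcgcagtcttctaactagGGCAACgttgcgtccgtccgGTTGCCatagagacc
Spag16: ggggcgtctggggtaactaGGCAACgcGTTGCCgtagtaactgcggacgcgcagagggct
Cfap44: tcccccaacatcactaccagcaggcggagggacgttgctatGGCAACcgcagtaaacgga
Cfap74: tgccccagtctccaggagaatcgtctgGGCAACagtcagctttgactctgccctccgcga
Hydin: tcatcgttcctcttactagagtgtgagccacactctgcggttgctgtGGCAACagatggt
Ccdc153: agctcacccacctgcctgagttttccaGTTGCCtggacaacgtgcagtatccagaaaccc
Ift57: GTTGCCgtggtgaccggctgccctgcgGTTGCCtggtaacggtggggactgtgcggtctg

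Tekt5 moved against most of the called genes in the tumor comparisons below, and its promoter is shown for that reason. These sequences are examples and do not stand for the set. The genes Cfap206, Cfap61, Cfap69, Dnah1, Dnah12 and Dnai1 were higher in MRX-2843 tumor than in vehicle tumor and hold no arm in their windows, whereas Rsph3b and Cfap300 were lower and hold one. The 250 bases before the start of Tekt5, at chr16:10395456-10395705 on the minus strand, hold neither arm.
Tekt5: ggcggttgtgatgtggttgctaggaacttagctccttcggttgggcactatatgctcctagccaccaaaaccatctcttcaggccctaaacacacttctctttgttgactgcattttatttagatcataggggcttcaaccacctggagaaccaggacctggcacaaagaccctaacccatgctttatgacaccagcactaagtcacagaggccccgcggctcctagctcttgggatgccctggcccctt

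The libraries held 51150569 to 112938462 counts. At these depths a count of 0 allows up to 3 counts, or 0.0266 to 0.0587 raw CPM per library, and such floors cover counting error only. Of nonzero values up to 20, 79.1% were even, so counts may not be independent reads. The floors, the at-least folds and the counting intervals below treat each count as a read of its own, and with coarser counts the folds would be smaller and the intervals wider. The MRX-2843 tumor libraries stood closer to naive brain than to vehicle tumor: their log2 levels correlated with naive brain at r = 0.955 to 0.964 over 12636 genes, while vehicle tumor correlated with all other groups at r = 0.467 to 0.492. Cell type markers differed along the same line. Summed CPM over 10 neuron markers was 3490 and 3480 in MRX-2843 tumor and 418 and 418 in vehicle tumor. Values in naive brain were 3560 and 3610 under MRX-2843 and 6490 and 6350 under vehicle. Summed CPM over 7 markers of dividing cells was 29.9 and 24.8 in MRX-2843 tumor and 234 and 235 in vehicle tumor. It stood at 7.32 and 7.59 in naive brain under MRX-2843 and at 6.22 and 7.57 under vehicle. Mitochondrial genes took 17.3% and 16.4% of counts in MRX-2843 tumor, 3.26% and 3.37% in vehicle tumor, 17.8% and 18.5% in MRX-2843 naive brain, with 15.1% and 14.7% in vehicle naive brain. Every MRX-2843 library held 25657 to 56676 counts of Xist, against 36 to 193 under vehicle. The Y-linked Ddx3y had 0 counts in all MRX-2843 libraries and 2168 to 6717 under vehicle. Treatment therefore cannot be told apart from the sex of the mice, nor from an unexplained number in the column names, 909 for MRX-2843 and 914 or 915 for vehicle. Each tumor contrast below goes with these differences, and their part in the results was not tested. In bulk tissue, fewer cells of a type and less RNA per cell cannot be told apart.

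More of the cilia genes were lower than higher in vehicle tumor against vehicle naive brain, and more were higher than lower in MRX-2843 tumor against vehicle tumor. For vehicle tumor against vehicle naive brain, 11 of the 83 genes were higher (13.3%) and 41 lower (49.4%) by edgeR's quasi-likelihood test, called at an adjusted p under 0.05. Of all 24356 genes tested, 60.1% were called, 29.3% higher and 30.8% lower. The median log2 fold change was -0.85 over the cilia genes, or -0.88 with genes at 0 to 3 counts set at their bounds, beside -0.03 over all genes. For MRX-2843 tumor against vehicle tumor, 49 were higher (59%) and 10 lower (12%), where 60.4% of all genes were called, 30.6% higher and 29.8% lower. The median was 1.48, beside 0.03 over all genes. The contrasts share the vehicle tumor libraries and are not independent of each other. Without scaling factors the cilia counts became 19 higher and 36 lower for vehicle tumor against vehicle naive brain, and the median of all genes moved to 0.21.

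**Figure D1:**
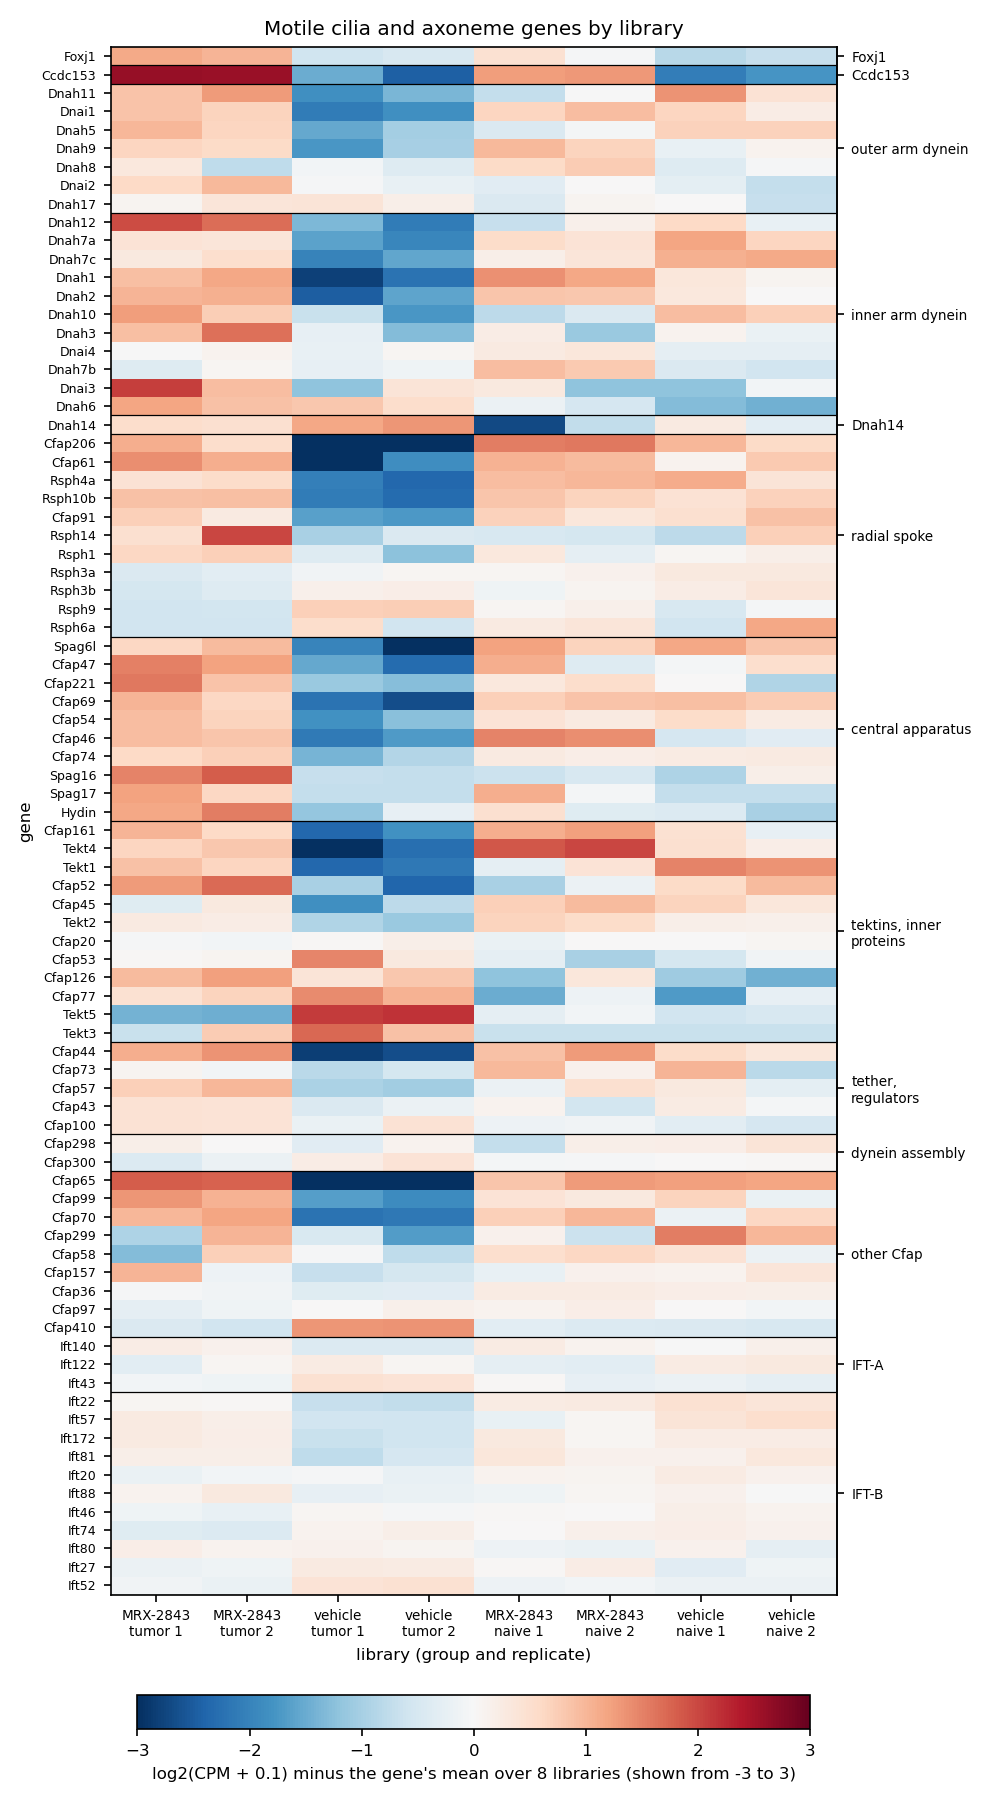
Level of each of the 84 genes in each library, as log2(CPM + 0.1) minus the gene's mean over the 8 libraries, with colour from -3 (blue) to 3 (red); rows are grouped by structural class and columns by group. The vehicle tumor columns are blue over most dynein, spoke and central apparatus rows, red at Tekt5 and Cfap410, and pale over the Ift rows.

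Transport genes and beating machinery differed in size of change. Among the 69 tested genes outside the Ift family, 8 were higher and 35 lower in vehicle tumor than in vehicle naive brain, with a median of -1.24, and 43 were higher and 6 lower in MRX-2843 tumor than in vehicle tumor, with a median of 2.22. Among the 14 Ift genes, 3 were higher and 6 lower in vehicle tumor, with a median of -0.20, and 6 were higher and 4 lower in MRX-2843 tumor, with a median of 0.02. Without scaling factors the Ift medians were 0.05 for vehicle tumor against vehicle naive brain and -0.21 for MRX-2843 tumor against vehicle tumor, so the sign of the family's median depends on the scaling. The Ift counts then became 4 higher and 4 lower in vehicle tumor against vehicle naive brain, and 5 higher and 7 lower in MRX-2843 tumor against vehicle tumor. The sum over all 84 genes was similar in every group, at 827 and 821 CPM in MRX-2843 tumor and 791 and 809 in vehicle tumor. In naive brain, MRX-2843 gave 841 and 849 and vehicle 846 and 828. Tekt5 and Cfap410 fill much of the vehicle tumor sum. Without these genes, picked after their values were seen, the 68 genes outside the Ift family summed to 396 and 394 CPM in MRX-2843 tumor and 230 and 250 in vehicle tumor. The naive brains read 383 and 399 with MRX-2843 and 367 and 355 with vehicle.

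**Figure D2:**
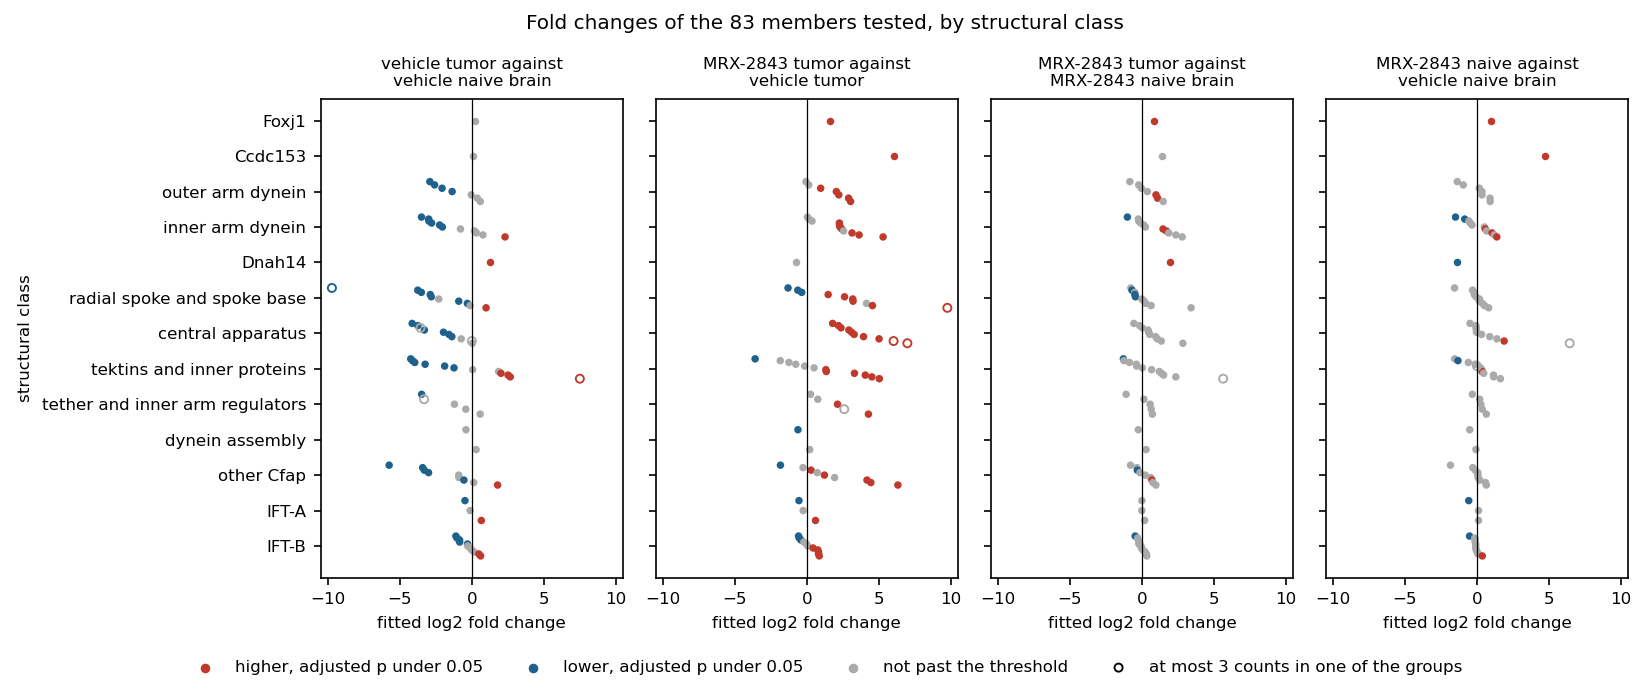
Fitted log2 fold change of the 83 genes tested in each of 4 comparisons (x axis), by structural class (y axis); each point is a gene, coloured by its call, and open points have at most 3 counts in one of the groups, so that their fitted value depends on the prior count. Dynein, spoke and central apparatus points lie mostly left of 0 for vehicle tumor against vehicle naive brain and mostly right of 0 for MRX-2843 tumor against vehicle tumor, and most points in the other panels are grey.

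Foxj1, the forkhead factor at the head of the motile cilia programme (ENSMUSG00000034227.8, chr11:116330704-116335399, GENCODE M21 on GRCm38), was not lowest in vehicle tumor. Its level was 8.97 and 8.35 CPM in MRX-2843 tumor and 2.65 and 2.90 in vehicle tumor. Naive brain had 5.58 and 3.97 with MRX-2843 and 2.24 and 2.49 with vehicle. Both MRX-2843 groups lie above both vehicle groups without overlap. The log2 fold change was 1.64 ± 0.25 (SE) for MRX-2843 tumor against vehicle tumor (edgeR adjusted p = 4.1e-05) and 1.01 ± 0.25 for MRX-2843 naive brain against vehicle naive brain (adjusted p = 0.0095), and vehicle tumor and vehicle naive brain differed by 0.23 ± 0.25 (adjusted p = 0.45). The naive brain difference missed the threshold without MRX-2843 naive brain library 1 (0.75, adjusted p = 0.11) or vehicle naive brain library 1 (0.93, adjusted p = 0.068). MRX-2843 tumor was also above MRX-2843 naive brain by 0.87 ± 0.24 (adjusted p = 0.018), a call lost without MRX-2843 naive brain library 2 (0.63, adjusted p = 0.17) or either MRX-2843 tumor library (0.81 and 0.92, adjusted p = 0.10 and 0.052).

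Ccdc153, a gene used as a marker of ependymal cells (chr9:44240676-44247306), showed the same order with a wider range. Its counts were 184 and 189 in MRX-2843 tumor, 8 and 0 in vehicle tumor, 58 and 132 in MRX-2843 naive brain, with 2 and 4 in vehicle naive brain. The MRX-2843 libraries are again all above the vehicle libraries. Ccdc153 passed the filter on low counts only through MRX-2843 libraries, so its calls are not independent support. The log2 fold change was 6.07 ± 0.89 for MRX-2843 tumor against vehicle tumor (edgeR adjusted p = 2.7e-05) and 4.73 ± 0.89 for MRX-2843 naive brain against vehicle naive brain (adjusted p = 0.0012). Between vehicle tumor and vehicle naive brain it was 0.06 ± 1.05 (adjusted p = 0.97). Vehicle tumor library 1 held all 8 of that group's counts, and without it the fitted value was -4.70, which depends on the prior count and shows no direction at these counts.

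The wider set of regulators of multiciliated cells was mixed. Of 14 listed genes other than Foxj1, 12 were tested; 4 were higher and 5 lower in vehicle tumor than in vehicle naive brain, with a median of 0.38, and 5 were higher and 2 lower in MRX-2843 tumor than in vehicle tumor, with a median of 0.97. Ccno, a cyclin-like gene needed for making many basal bodies, averaged 3.39 ± 0.733 CPM in MRX-2843 tumor, 0.0914 ± 0.0312 in vehicle tumor, 5.02 ± 0.444 in MRX-2843 naive brain, and 2.28 ± 1.12 in vehicle naive brain (SD, n = 2), and rose by 5.18 ± 0.50 on the log2 scale in MRX-2843 tumor against vehicle tumor (edgeR adjusted p = 3.0e-07). Rfx3, one of the X-box binding factors, averaged 30.5 ± 3.94 CPM in MRX-2843 tumor, 10.7 ± 0.613 in vehicle tumor, 22.1 ± 1.37 in MRX-2843 naive brain, and 39.2 ± 2.60 in vehicle naive brain. It was lower in vehicle tumor than in vehicle naive brain by a log2 fold change of -1.88 ± 0.12 (adjusted p = 2.1e-09) and higher in MRX-2843 tumor than in vehicle tumor by 1.52 ± 0.12 (adjusted p = 2.8e-08). Rfx1 moved the same way with -0.78 ± 0.09 (adjusted p = 2.8e-06) and 1.27 ± 0.09 (adjusted p = 1.1e-08). Rfx2 moved the other way, at 1.34 ± 0.25 (edgeR adjusted p = 0.00028) and -0.63 ± 0.25 (adjusted p = 0.039).

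Outer arm dyneins supply most of the beating force, and Dnah5, Dnah9 and Dnah11 encode their heavy chains and Dnai1 and Dnai2 their intermediate chains. Of the 7 genes of this class, 4 were lower and 0 higher in vehicle tumor than in vehicle naive brain (median -1.37), and 5 were higher and 0 lower in MRX-2843 tumor than in vehicle tumor (median 2.05). Dnai1 had 4.96 and 4.32 CPM in MRX-2843 tumor and 0.555 and 0.681 in vehicle tumor. Values in naive brain were 4.29 and 5.20 under MRX-2843 and 4.29 and 3.17 under vehicle. Only the vehicle tumor libraries stand apart, below the other 6. Dnai1 changed by -2.59 ± 0.31 for vehicle tumor against vehicle naive brain (edgeR adjusted p = 3.6e-06) and by 2.90 ± 0.32 for MRX-2843 tumor against vehicle tumor (adjusted p = 1.2e-06). Dnah5 had 4.36 and 3.41 CPM in MRX-2843 tumor and 0.671 and 0.998 in vehicle tumor. It stood at 1.56 and 2.06 in naive brain under MRX-2843 and at 3.50 and 3.53 under vehicle. Its MRX-2843 naive brain values lie between the tumor groups. It changed by -2.07 ± 0.36 for vehicle tumor (adjusted p = 0.00014) and by 2.22 ± 0.36 for MRX-2843 tumor against vehicle tumor (adjusted p = 7.9e-05). The gene Dnai2 rose by 0.96 ± 0.33 in MRX-2843 tumor against vehicle tumor (adjusted p = 0.022), a call lost after dropping MRX-2843 tumor library 2 (0.74, adjusted p = 0.17), without vehicle tumor library 2 (0.86, adjusted p = 0.095) or with library totals (0.73, adjusted p = 0.068). Dnah17, whose chain is best known from sperm flagella, averaged 4.20 ± 0.570 CPM in MRX-2843 tumor, 4.37 ± 0.464 in vehicle tumor, 3.21 ± 0.828 in MRX-2843 naive brain, and 2.90 ± 1.02 in vehicle naive brain, with -0.06 ± 0.31 for MRX-2843 tumor against vehicle tumor (adjusted p = 0.89).

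Inner arm dyneins shape the bend of the beat. Of 11 genes, 1 was higher and 6 lower in vehicle tumor than in vehicle naive brain (median -2.05), and 7 were higher and 0 lower in MRX-2843 tumor than in vehicle tumor (median 2.30). Dnah1 had 14.1 and 16.8 CPM in MRX-2843 tumor and 0.983 and 1.52 in vehicle tumor. In naive brain, MRX-2843 gave 19.5 and 16.7 and vehicle 9.47 and 7.96. Both MRX-2843 groups lie above vehicle naive brain, and vehicle tumor lies far below. Its log2 fold change was -2.80 ± 0.22 for vehicle tumor against vehicle naive brain (edgeR adjusted p = 2.3e-08), 3.63 ± 0.22 for MRX-2843 tumor against vehicle tumor (adjusted p = 1.3e-09) and 1.05 ± 0.19 for MRX-2843 naive brain against vehicle naive brain (adjusted p = 0.00087). Dnah12 was at 1.56 and 1.28 CPM in MRX-2843 tumor and 0.0694 and 0 in vehicle tumor. The naive brains read 0.164 and 0.375 with MRX-2843 and 0.545 and 0.268 with vehicle. It rose by 5.30 ± 1.19 in MRX-2843 tumor against vehicle tumor (adjusted p = 0.0013). Its fall in vehicle tumor (-3.50 ± 1.14, adjusted p = 0.016) missed the threshold without vehicle naive brain library 1 (-2.90, adjusted p = 0.066) or vehicle tumor library 2 (-2.52, adjusted p = 0.066), and without both MRX-2843 tumor libraries (-3.48, adjusted p = 0.066).

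Dnah6, a heavy chain gene, was the 1 inner arm gene higher in vehicle tumor than in vehicle naive brain. It had 2.60 and 2.09 CPM in MRX-2843 tumor, 2.01 and 1.63 in vehicle tumor, 0.964 and 0.740 in MRX-2843 naive brain, with 0.388 and 0.343 in vehicle naive brain, so both tumor groups lay above both naive groups. Vehicle tumor exceeded vehicle naive brain by 2.31 ± 0.48 (edgeR adjusted p = 0.00066), and MRX-2843 tumor and vehicle tumor differed by 0.36 ± 0.44 (adjusted p = 0.50). Dnai4, an intermediate chain gene, had 8.17 ± 0.441 CPM in MRX-2843 tumor, 7.43 ± 1.04 in vehicle tumor, 9.73 ± 0.336 in MRX-2843 naive brain, and 6.51 ± 0.0250 in vehicle naive brain (SD, n = 2), with 0.14 ± 0.18 for MRX-2843 tumor against vehicle tumor (adjusted p = 0.53).

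The near-copies Dnah7a, Dnah7b and Dnah7c on chromosome 1 gave different values. Dnah7c had 4.57 and 5.33 CPM in MRX-2843 tumor, 0.856 and 1.19 in vehicle tumor, 4.18 and 4.84 in MRX-2843 naive brain, with 7.95 and 8.30 in vehicle naive brain, a change of -2.99 ± 0.27 for vehicle tumor against vehicle naive brain (edgeR adjusted p = 1.2e-07) and 2.27 ± 0.26 for MRX-2843 tumor against vehicle tumor (adjusted p = 2.4e-06). Dnah7a changed by -3.0 ± 0.42 (adjusted p = 1.9e-05) and 2.43 ± 0.42 (adjusted p = 0.00013) in the same comparisons. Dnah7b instead had 5.56 and 7.57 CPM in MRX-2843 tumor and 6.12 and 6.65 in vehicle tumor. Naive brain had 14.0 and 12.6 with MRX-2843 and 5.33 and 4.87 with vehicle. Only MRX-2843 naive brain stands out, at 1.38 ± 0.19 above vehicle naive brain (adjusted p = 0.0001). Dnah7a, Dnah7b and Dnah7c share 27.8%, 34.3% and 34.5% of their 75-base transcript words with one another, so their split of reads is uncertain. Dnah14, a further heavy chain gene, was higher in vehicle tumor than in vehicle naive brain by 1.27 ± 0.45 (adjusted p = 0.025), a call lost without vehicle naive brain library 2 (1.00, adjusted p = 0.13).

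Radial spokes reach from the doublets to the central pair, and Cfap206, Cfap61 and Cfap91 act at their base. Of 11 genes 10 were tested; 1 was higher and 7 lower in vehicle tumor than in vehicle naive brain (median -2.56), and 6 were higher and 3 lower in MRX-2843 tumor than in vehicle tumor (median 2.90). Cfap206 (ENSMUSG00000028294.16, chr4:34688559-34730206) had 103 and 70 counts in MRX-2843 tumor and 0 and 0 in vehicle tumor. Values in naive brain were 122 and 276 under MRX-2843 and 117 and 82 under vehicle. With vehicle tumor set at 3 counts in all, the gene was at least 84.7-fold lower in vehicle tumor than in vehicle naive brain (adjusted p = 7.8e-07) and at least 86.7-fold higher in MRX-2843 tumor than in vehicle tumor (adjusted p = 7.6e-07). Cfap61 averaged 2.73 ± 0.421 CPM in MRX-2843 tumor, 0.113 ± 0.160 in vehicle tumor, 2.27 ± 0.103 in MRX-2843 naive brain, and 1.56 ± 0.548 in vehicle naive brain (SD, n = 2), a change of -3.76 ± 0.81 (edgeR adjusted p = 0.00098) and of 4.56 ± 0.83 (adjusted p = 0.00022).

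Spoke head and stalk genes were not uniform. Rsph4a, Rsph1 and Rsph10b were called lower in vehicle tumor than in vehicle naive brain, at -3.51 ± 0.47, -0.91 ± 0.37 and -2.89 ± 0.21. The edgeR adjusted p was 1.1e-05, 0.045 and 1.1e-08, so the Rsph1 call is near the threshold. These genes were called higher in MRX-2843 tumor than in vehicle tumor, at 3.19 ± 0.47, 1.48 ± 0.37 and 3.21 ± 0.21 (adjusted p = 3e-05, 0.0029 and 3.7e-09). Their calls were not followed over the other fits. Rsph9, Rsph3a and Rsph3b were lower in the second comparison. Rsph9, a spoke head gene, had 6.44 and 6.54 CPM in MRX-2843 tumor and 16.0 and 16.1 in vehicle tumor. It stood at 10.1 and 10.8 in naive brain under MRX-2843 and at 6.90 and 9.25 under vehicle. It was the highest in vehicle tumor, by 0.99 ± 0.17 over vehicle naive brain (edgeR adjusted p = 0.0001), and fell by 1.31 ± 0.17 in MRX-2843 tumor against vehicle tumor (adjusted p = 7.7e-06). The stalk genes Rsph3a and Rsph3b, which share 71.7% and 70.2% of their words with each other and other loci and are therefore uncertain, were also lower in MRX-2843 tumor than in vehicle tumor, at -0.36 ± 0.12 (adjusted p = 0.021) and -0.63 ± 0.13 (adjusted p = 0.00058). The Rsph3a call was lost after dropping MRX-2843 tumor library 1 (-0.30, adjusted p = 0.13) or vehicle tumor library 2 (-0.27, adjusted p = 0.17). The small fall of Rsph3a in vehicle tumor against vehicle naive brain (-0.31 ± 0.12, adjusted p = 0.039) was lost with library totals (-0.06, adjusted p = 0.71), without a filter (-0.31, adjusted p = 0.066), in DESeq2 (-0.30, adjusted p = 0.060), and without vehicle tumor library 1 (-0.22, adjusted p = 0.28), either vehicle naive brain library (-0.31, adjusted p = 0.13), MRX-2843 tumor library 2 (-0.29, adjusted p = 0.055) or MRX-2843 naive brain library 1 (-0.31, adjusted p = 0.050). The untested Rsph6a, best known from testis, had 0 and 0 counts in MRX-2843 tumor and 10 and 0 in vehicle tumor. In naive brain, MRX-2843 gave 4 and 10 and vehicle 0 and 16.

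The central apparatus sits on the central pair. Of its 10 genes, 6 were lower and 0 higher in vehicle tumor than in vehicle naive brain (median -1.78, or -1.97 with low-count genes at their bounds), and all 10 were higher in MRX-2843 tumor than in vehicle tumor (median 3.20). The 10 include Spag17 and Cfap221, which passed the filter on low counts only through MRX-2843 libraries. The calls of Spag17 and Spag16 were lost when single libraries were left out. Cfap69 (chr5:5579278-5664239) had 28 and 21.3 CPM in MRX-2843 tumor and 2.91 and 2.11 in vehicle tumor. The naive brains read 23.0 and 25.2 with MRX-2843 and 26.0 and 23.6 with vehicle. The 6 libraries other than vehicle tumor lay within 21.3 to 28 CPM, far above it. Its log2 fold change was -3.30 ± 0.18 for vehicle tumor against vehicle naive brain (edgeR adjusted p = 2.9e-10) and 3.29 ± 0.18 for MRX-2843 tumor against vehicle tumor (adjusted p = 3.3e-10). Spag6l, a central pair protein gene, had 2.36 and 2.97 CPM in MRX-2843 tumor, 0.301 and 0.0454 in vehicle tumor, 3.55 and 2.42 in MRX-2843 naive brain, with 3.46 and 2.74 in vehicle naive brain, changing by -4.15 ± 0.60 (adjusted p = 2.3e-05) and 3.94 ± 0.60 (adjusted p = 3.9e-05).

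Cfap54, Cfap74 and Cfap46 showed the same directions over the same comparisons, with -1.97 ± 0.25, -1.39 ± 0.15 and -1.59 ± 0.25 for vehicle tumor against vehicle naive brain (edgeR adjusted p = 6.1e-06, 1.3e-06 and 6.3e-05) and 2.37 ± 0.25, 1.79 ± 0.15 and 2.92 ± 0.26 for MRX-2843 tumor against vehicle tumor (adjusted p = 9.1e-07, 8.9e-08 and 1.0e-07). Cfap46 also rose in naive brain: it had 6.95 and 6.51 CPM in MRX-2843 tumor, 0.740 and 1.03 in vehicle tumor, 10.2 and 9.63 in MRX-2843 naive brain, with 2.51 and 2.83 in vehicle naive brain, so that the drug groups exceed both vehicle groups. MRX-2843 naive brain was 1.89 ± 0.24 above vehicle naive brain (adjusted p = 3.7e-05).

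The remaining central apparatus genes were scarce. Hydin, a giant central pair gene, had 1.90 and 2.53 CPM in MRX-2843 tumor, 0.301 and 0.658 in vehicle tumor, 1.15 and 0.600 in MRX-2843 naive brain, with 0.574 and 0.358 in vehicle naive brain, and rose by 2.20 ± 0.62 in MRX-2843 tumor against vehicle tumor (edgeR adjusted p = 0.0066) with 0.04 ± 0.62 between vehicle tumor and vehicle naive brain (adjusted p = 0.97). Spag16 had 0.879 and 1.13 CPM in MRX-2843 tumor and 0.116 and 0.113 in vehicle tumor. Naive brain had 0.123 and 0.15 with MRX-2843 and 0.0861 and 0.298 with vehicle. MRX-2843 tumor lies above the other groups, by 3.11 ± 1.07 over vehicle tumor (adjusted p = 0.021), and this call was lost when any library of either group was left out (2.90 to 3.28, adjusted p = 0.053 to 0.11). Spag17, which passed the filter on low counts only through MRX-2843 libraries, had 16 and 9 counts in MRX-2843 tumor and 0 and 0 in vehicle tumor. Values in naive brain were 12 and 6 under MRX-2843 and 0 and 0 under vehicle. That is at least 12.5-fold higher in MRX-2843 tumor than in vehicle tumor (adjusted p = 0.041), a call lost when any of the 8 libraries was left out (adjusted p = 0.066 to 0.23), without a filter (adjusted p = 0.072) and with a replicate block (adjusted p = 0.10), and at least 5.28-fold higher in MRX-2843 naive brain than in vehicle naive brain (adjusted p = 0.14). Cfap221 had 36 and 20 counts in MRX-2843 tumor, 1 and 0 in vehicle tumor, 10 and 27 in MRX-2843 naive brain, with 10 and 2 in vehicle naive brain, a ratio of 84.2 (95% counting interval 14.5 to 3380) between MRX-2843 tumor and vehicle tumor. Like Spag17, Cfap221 passed the filter only through MRX-2843 libraries.

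**Figure D3:**
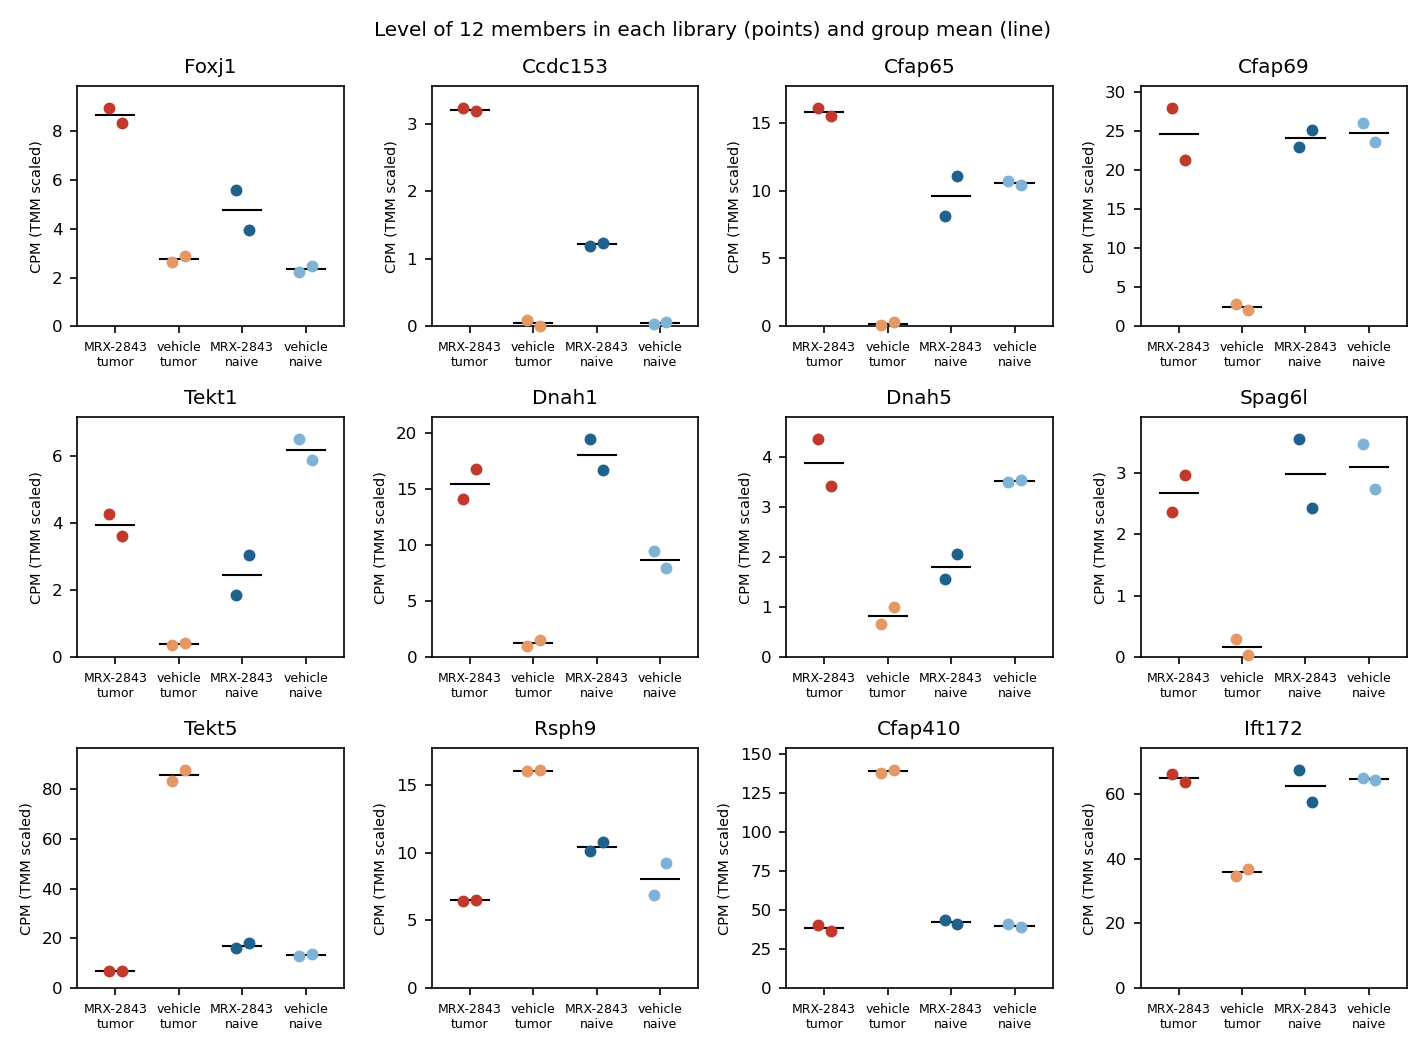
CPM (y axis, from 0, TMM scaled) of 12 genes in each library, with points for libraries and a line for the mean of each group of 2. Foxj1 and Ccdc153 are high in both MRX-2843 groups, Cfap65, Cfap69, Tekt1, Dnah1, Dnah5, Spag6l and Ift172 are lowest in vehicle tumor, and Tekt5, Rsph9 and Cfap410 are highest there.

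Tektins and other microtubule inner proteins split by gene. Of 12 genes, 4 were higher and 6 lower in vehicle tumor than in vehicle naive brain (median -0.59), and 6 were higher and 1 lower in MRX-2843 tumor than in vehicle tumor (median 0.91). Tekt1 has 2 promoter windows: the 1 shown above in part holds 2 X-box arms but no whole X-box, and the other holds no arm. The gene had 4.27 and 3.61 CPM in MRX-2843 tumor and 0.358 and 0.431 in vehicle tumor. It stood at 1.87 and 3.04 in naive brain under MRX-2843 and at 6.52 and 5.88 under vehicle. It was lowest in vehicle tumor, highest in vehicle naive brain, and between them in both MRX-2843 groups. The log2 fold change was -3.97 ± 0.36 for vehicle tumor against vehicle naive brain (edgeR adjusted p = 1.3e-07) and 3.31 ± 0.35 for MRX-2843 tumor against vehicle tumor (adjusted p = 8.7e-07). MRX-2843 naive brain was lower than vehicle naive brain, at -1.32 ± 0.31 (adjusted p = 0.0060), a call lost without MRX-2843 naive brain library 1 (-1.03, adjusted p = 0.060). Tekt4 changed by -4.13 ± 0.72 (adjusted p = 0.00014) and 4.52 ± 0.72 (adjusted p = 6.4e-05) in the tumor comparisons.

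Tekt5 (ENSMUSG00000039179.14, chr16:10357948-10395490), a tektin best known from sperm, went the other way. It had 7.14 and 6.95 CPM in MRX-2843 tumor and 83.4 and 87.7 in vehicle tumor. In naive brain, MRX-2843 gave 16.0 and 18.2 and vehicle 12.9 and 13.9. Vehicle tumor stands far above every other group, and MRX-2843 tumor is the lowest. Vehicle tumor was above vehicle naive brain by 2.67 ± 0.10 (edgeR adjusted p = 5.1e-12), MRX-2843 tumor changed by -3.60 ± 0.11 against vehicle tumor (adjusted p = 3.5e-13) and lay below MRX-2843 naive brain, at -1.29 ± 0.11 (adjusted p = 6.8e-07). None of its exon bases overlaps another annotated gene, and none of its 75-base words recurs in another. Tekt3, another tektin, had 0 and 10 counts in MRX-2843 tumor, 37 and 17 in vehicle tumor, and 0 in all 4 naive libraries, so that vehicle tumor was at least 14.1-fold above vehicle naive brain. It passed the filter on low counts only through tumor libraries, so its call is not independent support.

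Cfap126, a basal body and axoneme gene also called Flattop, was higher in vehicle tumor than in vehicle naive brain by 2.03 ± 0.52 (edgeR adjusted p = 0.0036), with 3.25 ± 0.464 CPM in MRX-2843 tumor, 2.29 ± 0.512 in vehicle tumor, 1.23 ± 0.933 in MRX-2843 naive brain, and 0.561 ± 0.120 in vehicle naive brain (SD, n = 2). Cfap52 changed by -3.25 ± 1.09 for vehicle tumor against vehicle naive brain (adjusted p = 0.018), a call lost without vehicle tumor library 2 (-2.26, adjusted p = 0.051) or without both MRX-2843 tumor libraries (-3.24, adjusted p = 0.058), and by 4.06 ± 1.11 for MRX-2843 tumor against vehicle tumor (adjusted p = 0.0054). Cfap20, an inner junction gene that other tissues also use, was at 39.6 ± 0.959 CPM in MRX-2843 tumor, 44.0 ± 3.13 in vehicle tumor, 38.6 ± 3.80 in MRX-2843 naive brain, and 42.0 ± 0.765 in vehicle naive brain. Its log2 difference was 0.06 ± 0.09 for vehicle tumor against vehicle naive brain (adjusted p = 0.57).

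Tether and regulator genes hold the inner arms in place. Of 5 genes, 0 were higher and 1 lower in vehicle tumor than in vehicle naive brain (median -1.21), and 2 were higher and 0 lower in MRX-2843 tumor than in vehicle tumor (median 2.13). Cfap44 had 6.56 and 7.96 CPM in MRX-2843 tumor, 0.347 and 0.397 in vehicle tumor, 5.64 and 7.51 in MRX-2843 naive brain, with 4.52 and 3.89 in vehicle naive brain, with only vehicle tumor apart. It changed by -3.49 ± 0.29 (edgeR adjusted p = 6.3e-08) and 4.28 ± 0.30 (adjusted p = 7.2e-09). Its partner Cfap43 averaged 3.01 ± 0.0402 CPM in MRX-2843 tumor, 1.78 ± 0.259 in vehicle tumor, 1.93 ± 0.635 in MRX-2843 naive brain, and 2.39 ± 0.382 in vehicle naive brain (SD, n = 2), with -0.42 ± 0.36 (adjusted p = 0.34) and 0.76 ± 0.36 (adjusted p = 0.085). Of the dynein assembly factors, Cfap300 fell by 0.62 ± 0.22 in MRX-2843 tumor against vehicle tumor (adjusted p = 0.023), a call lost after dropping MRX-2843 tumor library 1 (-0.51, adjusted p = 0.14) or vehicle tumor library 2 (-0.52, adjusted p = 0.14). Cfap298 differed by 0.20 ± 0.30 (adjusted p = 0.60), and 53.6% of its exon bases overlap other genes on the opposite strand, whose reads cannot be told apart without a strand setting.

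Of the 9 other Cfap genes, 1 was higher and 5 lower in vehicle tumor than in vehicle naive brain (median -0.91), and 5 were higher and 1 lower in MRX-2843 tumor than in vehicle tumor (median 1.22). Cfap65 (ENSMUSG00000047021.15, chr1:74902071-74935599), a gene of sperm flagella and other motile cilia, had 16.1 and 15.5 CPM in MRX-2843 tumor and 0.0925 and 0.295 in vehicle tumor. The naive brains read 8.16 and 11.1 with MRX-2843 and 10.7 and 10.4 with vehicle. Vehicle tumor was far below the other groups, and MRX-2843 tumor was the highest. The log2 fold change was -5.75 ± 0.32 for vehicle tumor against vehicle naive brain (edgeR adjusted p = 5.3e-10) and 6.33 ± 0.33 for MRX-2843 tumor against vehicle tumor (adjusted p = 1.9e-10). Cfap410 (chr10:77978524-77986905), linked to primary cilia and photoreceptors, was the reverse case, at 40.5 and 37.0 CPM in MRX-2843 tumor and 138 and 140 in vehicle tumor. Naive brain had 43.9 and 41.1 with MRX-2843 and 40.9 and 39.4 with vehicle. The 6 libraries other than vehicle tumor lay within 37.0 to 43.9 CPM. It was 1.79 ± 0.07 higher in vehicle tumor than in vehicle naive brain (adjusted p = 1.1e-11) and fell by 1.84 ± 0.07 in MRX-2843 tumor against vehicle tumor (adjusted p = 9.2e-12). Cfap36 had smaller changes, with -0.55 ± 0.07 (adjusted p = 6.6e-06) and 0.29 ± 0.07 (adjusted p = 0.0023), and the second of these was lost with library totals (0.07, adjusted p = 0.43).

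Intraflagellar transport genes had smaller changes in both directions, from -1.11 to 0.66 for vehicle tumor against vehicle naive brain and from -0.58 to 0.86 for MRX-2843 tumor against vehicle tumor. In the anterograde complex IFT-B, 2 of 11 genes were higher and 5 lower in vehicle tumor than in vehicle naive brain (median -0.29), and 5 were higher and 3 lower in MRX-2843 tumor than in vehicle tumor (median 0.06). Ift172, its largest subunit gene, had 66.1 and 63.6 CPM in MRX-2843 tumor, 34.8 and 36.7 in vehicle tumor, 67.4 and 57.6 in MRX-2843 naive brain, with 65.0 and 64.2 in vehicle naive brain, with vehicle tumor alone below. It changed by -0.85 ± 0.08 (edgeR adjusted p = 3.1e-07) and 0.86 ± 0.08 (adjusted p = 3.0e-07). Ift22 and Ift57 followed with -1.11 ± 0.08 and -1.03 ± 0.11 (adjusted p = 7.0e-09 and 1.2e-06) and with 0.76 ± 0.08 and 0.81 ± 0.11 (adjusted p = 6.8e-07 and 1.6e-05).

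Other transport genes ran against these. Ift52, a core IFT-B gene, had 20.2 and 18.9 CPM in MRX-2843 tumor, 28.6 and 29.9 in vehicle tumor, 19.6 and 20.5 in MRX-2843 naive brain, with 19.1 and 19.2 in vehicle naive brain, or 0.61 ± 0.10 for vehicle tumor against vehicle naive brain (edgeR adjusted p = 0.00012) and -0.58 ± 0.10 for MRX-2843 tumor against vehicle tumor (adjusted p = 0.0002). Of the 3 genes of the retrograde complex IFT-A, Ift43 was higher in vehicle tumor by 0.66 ± 0.15 (adjusted p = 0.0016) and lower in MRX-2843 tumor than in vehicle tumor at -0.55 ± 0.15 (adjusted p = 0.0055), while Ift140 changed by -0.48 ± 0.11 (adjusted p = 0.0011) and 0.60 ± 0.11 (adjusted p = 0.00018). The fall of Ift140 in vehicle tumor was lost with library totals (-0.23, adjusted p = 0.079). Ift20 was lower in vehicle tumor, at -0.30 ± 0.09 (adjusted p = 0.0063), but not with library totals (-0.05, adjusted p = 0.65), without vehicle naive brain library 1 (-0.24, adjusted p = 0.078) or without vehicle tumor library 2 (-0.22, adjusted p = 0.085). Ift74 fell by 0.53 ± 0.13 in MRX-2843 tumor against vehicle tumor (adjusted p = 0.0027).

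Per kb of exon, IFT-B had the highest median of the structural classes in every group. Its median level was 6.98 CPM per kb in MRX-2843 tumor, 5.65 in vehicle tumor, 7.15 in MRX-2843 naive brain, and 6.84 in vehicle naive brain. Ift20 alone was at 27.1 CPM per kb in MRX-2843 tumor, 27.6 in vehicle tumor, 32.1 in MRX-2843 naive brain and 34.1 in vehicle naive brain. The dynein chains were low everywhere: the inner arm median was 0.221 CPM per kb in MRX-2843 tumor, 0.0580 in vehicle tumor, 0.171 in MRX-2843 naive brain, and 0.237 in vehicle naive brain. The outer arm median was 0.248 CPM per kb in MRX-2843 tumor, 0.0562 in vehicle tumor, 0.199 in MRX-2843 naive brain and 0.18 in vehicle naive brain. The central apparatus median was 0.375 CPM per kb in MRX-2843 tumor, 0.0323 in vehicle tumor, 0.257 in MRX-2843 naive brain, and 0.170 in vehicle naive brain. In vehicle tumor Tekt5 reached 47.3 CPM per kb, the highest level of any of the 84 genes in any group.

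**Figure D4:**
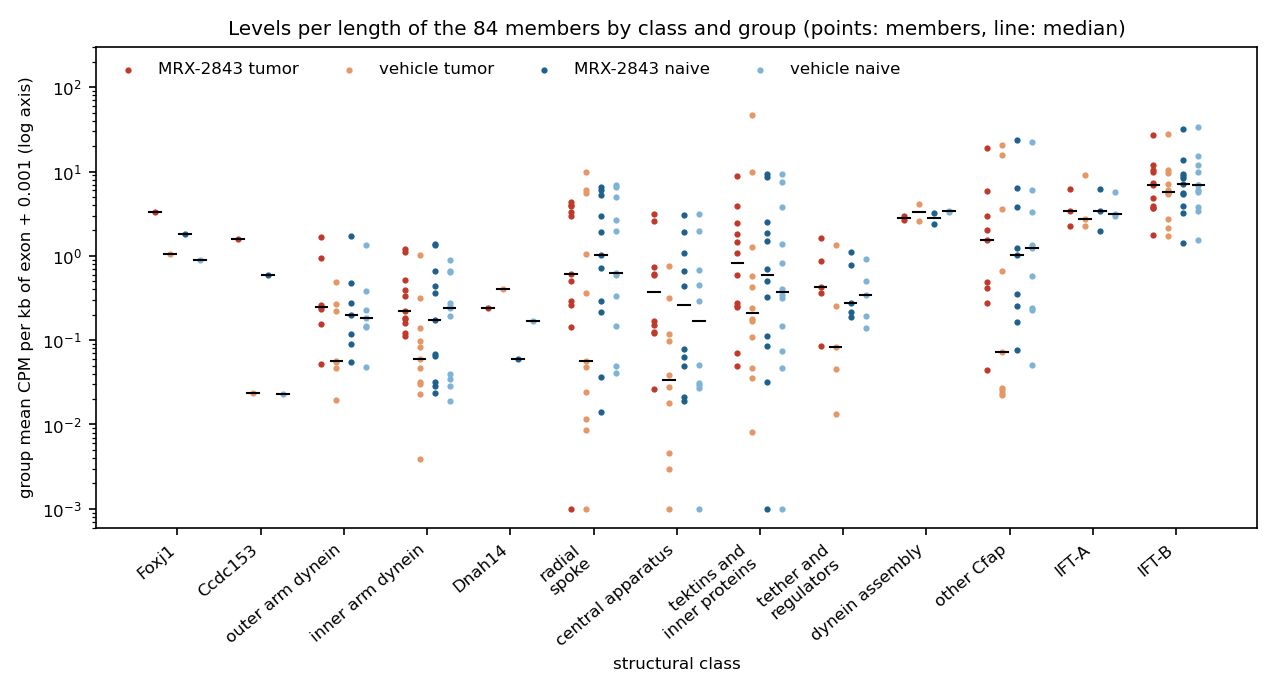
Group mean CPM per kb of exon + 0.001 (y axis, log scale) of the 84 genes by structural class (x axis); each point is a gene and each line a class median, and points at 0.001 are genes with no count in that group. Medians of the inner arm, outer arm, spoke and central apparatus classes are lowest in vehicle tumor, and those of IFT-B differ less.

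Under MRX-2843 treatment, few of these genes differed between tumor and naive brain by the test. For MRX-2843 tumor against MRX-2843 naive brain, 7 of the 83 genes were higher (8.43%) and 7 lower (8.43%) at an adjusted p under 0.05. Of all genes tested, 24.4% were called, 12.4% higher and 11.9% lower. The median was 0.19, beside 0.00 over all genes. This count depends on the fit: 17 were higher when only these groups were fitted, 12 with DESeq2, 11 with a stricter filter, and 1 to 13 when single libraries were left out, the lowest after dropping MRX-2843 tumor library 1. The share of all genes called under these other fits is not given, so their counts are not read as a result about these genes. Among the falls in the main fit were Tekt5, Dnah7b at -1.01 ± 0.19 (edgeR adjusted p = 0.0012) and Rsph9 at -0.69 ± 0.17 (adjusted p = 0.0075). Among the rises, Dnah10 had 3.56 ± 0.933 CPM in MRX-2843 tumor and 1.09 ± 0.201 in MRX-2843 naive brain (SD, n = 2), or 1.70 ± 0.44 (adjusted p = 0.010). That call was lost without MRX-2843 naive brain library 1 (1.53, adjusted p = 0.055) or MRX-2843 tumor library 1 (1.41, adjusted p = 0.080). Cfap65 was higher by 0.70 ± 0.23 (adjusted p = 0.035), which was lost without MRX-2843 naive brain library 1 (0.50, adjusted p = 0.21), MRX-2843 tumor library 1 (0.67, adjusted p = 0.11) or MRX-2843 tumor library 2 (0.74, adjusted p = 0.070).

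In naive brain, the share of these genes called higher was near that of all genes, and the share called lower was smaller. For MRX-2843 naive brain against vehicle naive brain, 8 of 83 genes were higher (9.64%) and 6 lower (7.23%). Of all genes tested, 21.5% were called, 9.78% higher and 11.7% lower. The median was 0.07, beside 0.02 over all genes. Leaving out single libraries gave 4 to 11 higher and 2 to 8 lower, with the fewest higher without vehicle naive brain library 1 and the fewest lower without MRX-2843 naive brain library 1. The largest rises were of Ccdc153, Cfap46, Dnah7b, Dnah1 and Foxj1, with the values given above. Among the falls, Dnah10 was at -1.49 ± 0.44 (edgeR adjusted p = 0.024), lost without library 1 of either group (-1.33 and -1.38, adjusted p = 0.11 and 0.10), and Dnah7c at -0.85 ± 0.24 (adjusted p = 0.022), lost without MRX-2843 naive brain library 1 (-0.75, adjusted p = 0.13) or either vehicle naive brain library (-0.88 and -0.82, adjusted p = 0.082 and 0.11). Ift57 fell by 0.51 ± 0.11 (adjusted p = 0.0035) and Ift122 fell by 0.57 ± 0.13 (adjusted p = 0.0041).

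The treatment difference itself was compared between tissues by the interaction of treatment and tissue. It was positive, meaning a larger log2 change with MRX-2843 in tumor than in naive brain, in 35 of 83 genes and negative in 8, where 51.6% of all genes were called, 26.3% positive and 25.3% negative. The median was 1.08, beside 0.02 over all genes. The radial spoke genes gave 6 positive and 1 negative of 10, the central apparatus 6 and 0 of 10, the inner arm dyneins 6 and 1 of 11, and the Ift genes 6 and 3 of 14. Cfap65 had 6.45 ± 0.40 (edgeR adjusted p = 2.5e-09), and Tekt5 had -3.96 ± 0.15 (adjusted p = 6.1e-12). Foxj1 had 0.63 ± 0.35 (adjusted p = 0.15) and Ccdc153 1.34 ± 1.29 (adjusted p = 0.42). The Ift split is 4 positive and 5 negative without scaling factors.

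Genes of related structures outside the set showed the same pattern in part. Of 12 genes of the dynein regulatory complex and the ruler that spaces the axonemal repeat, 9 were lower and 0 higher in vehicle tumor than in vehicle naive brain (median -1.91), and 11 were higher and 0 lower in MRX-2843 tumor than in vehicle tumor (median 2.80). Drc1, its base subunit gene, averaged 18.5 ± 0.400 CPM in MRX-2843 tumor, 0.497 ± 0.163 in vehicle tumor, 17.6 ± 1.63 in MRX-2843 naive brain, and 16.7 ± 0.161 in vehicle naive brain (SD, n = 2), a change of -5.06 ± 0.20 (edgeR adjusted p = 9.0e-12) and 5.21 ± 0.20 (adjusted p = 7.1e-12). The ruler gene Ccdc39 changed by -1.72 ± 0.15 (adjusted p = 6.9e-08) and 2.02 ± 0.15 (adjusted p = 1.1e-08). Of 35 other axonemal genes 34 were tested; 2 were higher and 17 lower in vehicle tumor (median -1.12, or -1.40 at the bounds), and 23 were higher and 1 lower in MRX-2843 tumor than in vehicle tumor (median 2.22). Ak7, an adenylate kinase gene that is also on the ependymal list, had 230 and 188 counts in MRX-2843 tumor and 0 and 0 in vehicle tumor, at least 209-fold higher in MRX-2843 tumor. Tppp3, a tubulin polymerization promoting gene, changed by -2.53 ± 0.09 (adjusted p = 2.1e-12) and 2.98 ± 0.09 (adjusted p = 3.7e-13).

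Dynein assembly and docking factors, of which 21 of 23 were tested, were 4 higher and 10 lower in vehicle tumor than in vehicle naive brain (median -1.13) and 14 higher and 5 lower in MRX-2843 tumor than in vehicle tumor (median 1.53). Dnaaf3, an assembly factor gene, was an exception like Tekt5, at 1.34 ± 0.448 CPM in MRX-2843 tumor, 58.9 ± 0.211 in vehicle tumor, 0.853 ± 0.0405 in MRX-2843 naive brain, and 0.613 ± 0.0666 in vehicle naive brain (SD, n = 2). It was 6.58 ± 0.21 higher in vehicle tumor than in vehicle naive brain (edgeR adjusted p = 5.8e-13) and lower in MRX-2843 tumor than in vehicle tumor, at -5.46 ± 0.19 (adjusted p = 2.2e-12), while the assembly factor gene Zmynd10 changed by -4.50 ± 0.33 (adjusted p = 1.3e-08) and 4.79 ± 0.33 (adjusted p = 6.9e-09). Primary cilium genes moved as well. Of 30 genes of the BBSome and primary cilium, 4 were higher and 21 lower in vehicle tumor than in vehicle naive brain (median -0.95), and 23 were higher and 3 lower in MRX-2843 tumor than in vehicle tumor (median 0.75). Ahi1, a transition zone gene also abundant in neurons, changed by -2.88 ± 0.06 (adjusted p = 2.8e-15) and 3.11 ± 0.06 (adjusted p = 1.5e-15). Of 20 other transport subunits and motors, 3 were higher and 12 lower in vehicle tumor (median -0.61), and 11 were higher and 4 lower in MRX-2843 tumor (median 0.52). Kif17, a kinesin gene also abundant in neurons, changed by -5.38 ± 0.20 (adjusted p = 4.2e-12) and 5.93 ± 0.20 (adjusted p = 1.5e-12).

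Markers of the cells that carry such cilia were set beside these values. Of 12 ependymal markers outside the set, 4 were higher and 6 lower in vehicle tumor than in vehicle naive brain (median -1.46), and 9 were higher and 3 lower in MRX-2843 tumor than in vehicle tumor (median 2.82, or 2.81 at the bounds). Their summed level was 23.4 and 21.8 CPM in MRX-2843 tumor and 34.8 and 34.9 in vehicle tumor. Values in naive brain were 16.9 and 16.7 under MRX-2843 and 11.5 and 10.2 under vehicle. The vehicle tumor sum is mostly Rarres2, a secreted protein gene other cells express too, at 26.9 ± 0.335 CPM (SD, n = 2). Ak7 and Pifo were at 0 counts in both vehicle tumor libraries, and Tmem212 at 0 in both vehicle naive brain libraries. Mia ran against Ak7 and Pifo. Its counts summed to 328 over the vehicle tumor group, while vehicle naive brain and MRX-2843 tumor held 0. That is at least 85.6-fold above the former and at least 72.7-fold above the latter. Of 10 choroid plexus markers, 2 were higher and 2 lower in each of these comparisons, with a summed level of 19.0 and 13.8 CPM in MRX-2843 tumor and 172 and 173 in vehicle tumor. It stood at 35.0 and 36.3 in naive brain under MRX-2843 and at 8.02 and 9.51 under vehicle. In vehicle tumor, Aqp1 alone gave 165 CPM. Between MRX-2843 naive brain and vehicle naive brain, 2 ependymal and 3 choroid plexus markers were higher and 0 lower.

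The other cell types moved with the tumor contrasts over whole lists. All 10 neuron markers and all 8 oligodendrocyte markers were lower in vehicle tumor than in vehicle naive brain (median -5.08 and -4.82), and 9 of the 10 and 8 of the 8 were higher in MRX-2843 tumor than in vehicle tumor (median 4.36 and 5.85), with 1 neuron marker lower. All 8 microglia and macrophage markers and all 7 dividing cell markers were higher in vehicle tumor than in vehicle naive brain (median 3.27 and 5.61) and lower in MRX-2843 tumor than in vehicle tumor (median -2.85 and -3.22). Of 7 astrocyte markers, 3 were higher and 3 lower in vehicle tumor, and 4 were higher and 3 lower in MRX-2843 tumor. The part of these cell types in the cilia gene changes was not tested.

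The X-box arms were set beside the calls for MRX-2843 tumor against vehicle tumor. Among genes with a promoter window, an arm stood in 20 of the 40 that were higher (50.0%), in 3 of the 10 that were lower (30.0%), and in 5 of the 17 that passed in neither direction (29.4%). These shares describe the letters in 300-base windows, with no test.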

How the data were processed

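RNA was sequenced from 8 libraries in 4 groups of 2. The authors deposited whole-number read counts for each gene, not normalized. Per the submitters' processing notes, featureCounts (Subread), SAMtools and STAR 2.7.7a were used with builds mm10 and hg38, with no role or order given. The strand setting, annotation release and trimming are not given in the sources used here. Of nonzero values up to 20, 79.1% were even, so low counts may be coarser than single reads. Gene positions and exon lengths came from GENCODE M21 (GRCm38), where all 84 genes matched by ID without version, and promoters from RefSeq on GRCm38.p6.

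Counts of 24356 genes passing edgeR's expression filter (minimum count 10, by group) entered 1 edgeR 4.0.16 model (R 4.3.3) with TMM scaling, 4 group means over all 8 libraries, 4 residual degrees of freedom, quasi-likelihood tests and Benjamini-Hochberg adjustment over all genes tested, called at 0.05. CPM values are TMM scaled, each SE is the absolute log2 fold change divided by sqrt(F), and SD is over 2 libraries. Folds against groups with 0 counts used a floor of 3 counts over the group, and 95% intervals cover counting error only. Library totals ran from 51150569 to 112938462 counts. Tables and plots used Python 3.11.15, pandas 2.3.3, NumPy 2.4.6 and matplotlib 3.10.9. The fit was tested on simulated data.

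The cilia genes and all lists were chosen with earlier results of these data known. Named genes were Foxj1, Spag6l, Spag16, Spag17, Hydin, Ccdc153 and Dnah7a to Dnah7c; the 3 most abundant per class; the 6 largest called rises and falls per comparison, with mean log2 CPM of at least 0 and no overlap of libraries, and 4 of each sign for the interaction; 3 per pathway list by adjusted p; and 2 per marker list. Cfap221, Rsph6a, Rsph4a, Rsph1, Rsph10b, Tekt3, Cfap91, Rfx2 and the marker genes at 0 outside this rule were named after their values were seen. Alternatives were DESeq2 1.42.0, its size factors, library totals, no filter, a stricter filter (CPM of 1 in 2 libraries), only the groups compared, a replicate block and leaving out each library, and, chosen after seeing the data, leaving out both MRX-2843 tumor libraries.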

Additional observations from a re-analysis of the deposited data

Results flagged for a closer look

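The change with MRX-2843 differed between tumor and naive brain in 35 genes with a positive and 8 with a negative interaction of treatment and tissue (edgeR, adjusted p under 0.05). The share called, 51.8%, was near the 51.6% of all genes tested. The signs were split 42.2% positive and 9.64% negative here, beside 26.3% and 25.3% over all genes. The named genes with the largest values of each sign were as follows, on the log2 scale. Cfap206 had 8.96, a fitted value that depends on the prior count because vehicle tumor held no count. Cfap65 had 6.45, Dnah12 had 5.86 and Cfap52 had 5.61. Tekt5 had -3.96, Cfap410 had -1.92, Rsph9 had -1.68 and Dnah7b had -1.34. The values of Cfap206, Cfap65, Tekt5, Cfap410 and Rsph9 go with vehicle tumor libraries that stand apart from the other 3 groups, and that of Dnah7b goes with MRX-2843 naive brain, at 14.0 and 12.6 CPM.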

How the results depend on the processing

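Over the alternatives, 814 of 842 values for vehicle tumor against vehicle naive brain kept their call (higher, lower or not called), as did 761 of 793 for MRX-2843 tumor against vehicle tumor, 720 of 793 for MRX-2843 tumor against MRX-2843 naive brain, 809 of 844 for MRX-2843 naive brain against vehicle naive brain and 712 of 740 for the interaction. Direction was compared only where the main or the alternative fit passed the threshold. The 1 change of sign among the values so compared was Ccdc153, fitted at -4.70 for vehicle tumor against vehicle naive brain without vehicle tumor library 1. That library held all of the group's counts, so the value depends on the prior count and shows no direction; dropping single libraries took it from -4.70 to 1.04. With library totals, higher calls in vehicle tumor against vehicle naive brain numbered 19 (15 outside the Ift family) and negative interactions 13 (8 outside it); that scaling moved the median of all genes from -0.03 to 0.21 and from 0.02 to -0.20. The split of higher against lower calls shifted to 44 and 15 for MRX-2843 tumor against vehicle tumor and to 32 and 13 for the interaction. Higher calls in MRX-2843 tumor against MRX-2843 naive brain numbered 17 with only those groups fitted (16 outside the Ift family), 12 with DESeq2 (12 outside it) and 11 with a stricter filter. The share of all genes called is not given for these fits, nor for those that leave out single libraries. The cause of the shifts was not tested.

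Leaving out single libraries gave, for higher and lower calls, 9 to 11 and 36 to 41 in vehicle tumor against vehicle naive brain, 43 to 48 and 8 to 11 in MRX-2843 tumor against vehicle tumor, 1 to 13 and 4 to 9 in MRX-2843 tumor against MRX-2843 naive brain, 4 to 11 and 2 to 8 in MRX-2843 naive brain against vehicle naive brain, and 33 to 36 and 6 to 8 for the interaction. Outside the Ift family the ranges were 6 to 8 and 31 to 35, 38 to 42 and 4 to 7, 1 to 13 and 4 to 7, 4 to 10 and 0 to 6, and 28 to 31 and 4 to 5 in the same order. For MRX-2843 tumor against MRX-2843 naive brain, higher calls numbered 1 without MRX-2843 tumor library 1, 3 without its library 2 or MRX-2843 naive brain library 1, and 13 without either vehicle tumor library, and lower calls 4 without MRX-2843 tumor library 1 or MRX-2843 naive brain library 2. For MRX-2843 naive brain against vehicle naive brain, lower calls numbered 2 without MRX-2843 naive brain library 1 and 3 without vehicle naive brain library 1, and higher calls 5 without MRX-2843 naive brain library 2 and 4 without vehicle naive brain library 1.

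Correlations of same-numbered deviations were -0.0902 to 0.0695 and showed no pairing by replicate number. They cannot tell whether tumor and naive libraries came from the same animals. With the replicate block, higher and lower calls were 10 and 40 in vehicle tumor against vehicle naive brain, 48 and 10 in MRX-2843 tumor against vehicle tumor, 8 and 7 in MRX-2843 tumor against MRX-2843 naive brain, 8 and 6 in MRX-2843 naive brain against vehicle naive brain, and 36 and 8 for the interaction. Depth limits the scarcest genes: changes near 0.0266 to 0.0587 raw CPM, the floor of 3 counts, were not detectable.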
